A study of Homo sapiens with 2 samples.

Results

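The 29 genes described here copy the genome or supply what copying needs, and they were chosen by function, as a list of DNA replication and S phase genes. They are 29 of 11787 genes compared between 2 arrays of U251, an established human glioma cell line grown in DMEM with 10% FBS. The control array holds RNA of U251 cells transfected with a control, and the miR-31 array holds RNA of U251 cells transfected with miR-31, a microRNA. The labels give neither the kind of construct nor the time between transfection and harvest. Expression was read on the Affymetrix HG-U133_Plus_2 array, on which a gene is read by 1 or more sets of short probes, and each gene is represented here by its probe set with the highest mean over both arrays. Each group has 1 array, so there is no replicate spread, no p-value was computed, and every difference is between these 2 RNA samples. In such a bulk sample, fewer cells in S phase and less RNA per cell cannot be told apart.

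Before S phase, the origin recognition complex, CDC6 and CDT1 load the ring-shaped MCM helicase onto DNA, and in S phase CDC45 and the GINS proteins join the ring so that it can unwind the double strand. Polymerases then copy both strands on a sliding clamp, PCNA, with nucleotides made by ribonucleotide reductase and thymidylate synthase. Many of these genes are switched on by E2F transcription factors once cyclin-dependent kinases, among them cyclin E with CDK2, have released E2F from RB. They are widely used as a readout of how much of a culture is dividing, and glioma lines divide continuously in culture.

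The transfected microRNA recognises its targets mainly through its seed, bases 2 to 8, shown in capitals in the mature sequence from RefSeq (GRCh38.p14, chr9:21512158-21512178, minus strand).
hsa-miR-31-5p: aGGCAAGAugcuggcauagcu

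E2F words in promoters were not used to choose the genes, but the choice by function was not independent of them. Many S phase genes are known to be switched on by E2F, as said above. The RefSeq promoter table (GRCh38.p14) gives windows of 300 bases, from 250 before to 50 after a gene's start, for 26 of the 29 genes; CCNE2, MCM4 and MCM5 had no entry. The words TTTCCCGC, TTTGGCGC, TTTCGCGC and TTTGCCGC were searched on both strands, where they may overlap each other, and at least 1 was found in a window of 15 of the 26 genes (57.7%). Among the 6853 genes with a window that were at least as bright as the dimmest of the 29, 494 had such a word (7.21%), and so did 1164 of all 35116 windows (3.31%). The stretches below lie before the gene's start, with the E2F words in capitals. They are shown for the gene with the highest ratio (E2F1), for 4 genes below 0 from different steps, and for the helicase gene with the smallest difference (MCM6), in which 2 words overlap on opposite strands.
E2F1 (chr20:33686386-33686443, minus strand): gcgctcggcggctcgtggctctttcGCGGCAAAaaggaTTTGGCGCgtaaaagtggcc
CDT1 (chr16:88803729-88803786, plus strand): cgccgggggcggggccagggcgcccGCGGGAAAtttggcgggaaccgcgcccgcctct
GINS2 (chr16:85688955-85689010, minus strand): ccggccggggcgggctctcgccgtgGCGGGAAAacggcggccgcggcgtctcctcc
POLA1 (chrX:24693756-24693813, plus strand): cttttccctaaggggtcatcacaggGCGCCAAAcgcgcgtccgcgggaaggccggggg
PCNA (chr20:5126649-5126706, minus strand): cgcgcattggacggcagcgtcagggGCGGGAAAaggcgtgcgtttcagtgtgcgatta
MCM6 (chr2:135876497-135876554, minus strand): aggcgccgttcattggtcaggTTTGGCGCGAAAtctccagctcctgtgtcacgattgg

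The word CCAAT, bound by NF-Y, was in a window of 17 of the 26 genes (65.4%), against 44.9% of the equally bright genes. The words TTTGAA and TTCGAA, the CHR element of many mitotic genes, were in 3 of the 26 (11.5%), against 16.7%. These are matches of letters and not shown binding sites. The 15 genes with an E2F word had a median log2 ratio of -0.35, and the 11 with none in these windows had -0.30. The groups of genes overlapped over nearly their whole range, from -0.69 to 0.70 with a word and from -0.71 to 0.35 without.

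The deposited values are linear intensities, and a gene's ratio here is the log2(intensity + 16) of the miR-31 array minus that of the control array. On this scale changes of dim genes come out smaller than they are. Genes were compared if their mean level reached 62.7, the median of all probe sets. All 29 passed, and did so on each array: the control array gave them intensities of 310.3 to 26123, and the miR-31 array gave 344.1 to 22655. To gauge noise, the ratios of probe sets of the same gene were set against each other, which gave an SD of 0.22 for the ratio of a probe set, from 2016 genes with exactly 2 probe sets at least as bright as the dimmest of the 29. Over all 3142 compared genes with exactly 2 probe sets above the level filter the SD was 0.33, so dimmer probe sets are noisier than this gauge. The gauge leaves out differences between cultures. The trimmed mean intensity was 499.9 on both arrays. Of 8 astroglial and glioma markers 7 were above the level filter, among them VIM, GFAP and SOX2, while S100B was not (38.1 and 50.8). Of 14 named microglia, macrophage and lymphoid markers 2 passed, with a highest intensity of 100.9, and the summed level of the 9 microglia and macrophage markers was 298.6 with the control and 351.3 with miR-31. The summed level of the 5 lymphoid markers was 96.1 and 156.5. Fibroblast markers were brighter, with a summed level of 14193 and 22169 over 5 genes, of which 2 passed: the collagen genes COL1A2, with 12349 and 21028, and COL1A1, with 1630 and 1052. Of 4 endothelial markers, with a summed level of 704.4 and 471.4, KDR (539.2 and 280.9) and PECAM1 (121.3 and 123.8) passed. The part of other cells in the results was not tested.

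Most replication genes were slightly lower in the miR-31 array. Of the 29, 25 had a ratio below 0 and 4 above, and the median was -0.30, an intensity about 18.6% lower. Among all genes compared 46.8% were below 0 with a median of 0.03, and among the 8053 genes at least as bright as the dimmest of the 29, 50.6% were below 0 with a median of -0.00. None of the 29 was at least 2-fold lower, where 1.58% of all genes were, and none was at least 2-fold higher, where 3.74% were. At 1.5-fold, 4 were lower, CDC45, MCM2, UNG and POLA1, against 6.73% of all genes and 5.75% of the equally bright ones. E2F1 alone was at least 1.5-fold higher, against 11.7% of all genes. Of the 29, 19 lay in the lowest 25% of all genes compared, whose upper bound is a ratio of -0.22, and 7 in the lowest 10%. By the gauge of 0.22, 19 genes were further below 0, 2 were further above it and 8 lay within. The quartiles of the equally bright genes were -0.23 and 0.23, so ratios outside the gauge were common among those as well.

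**Figure D1:**
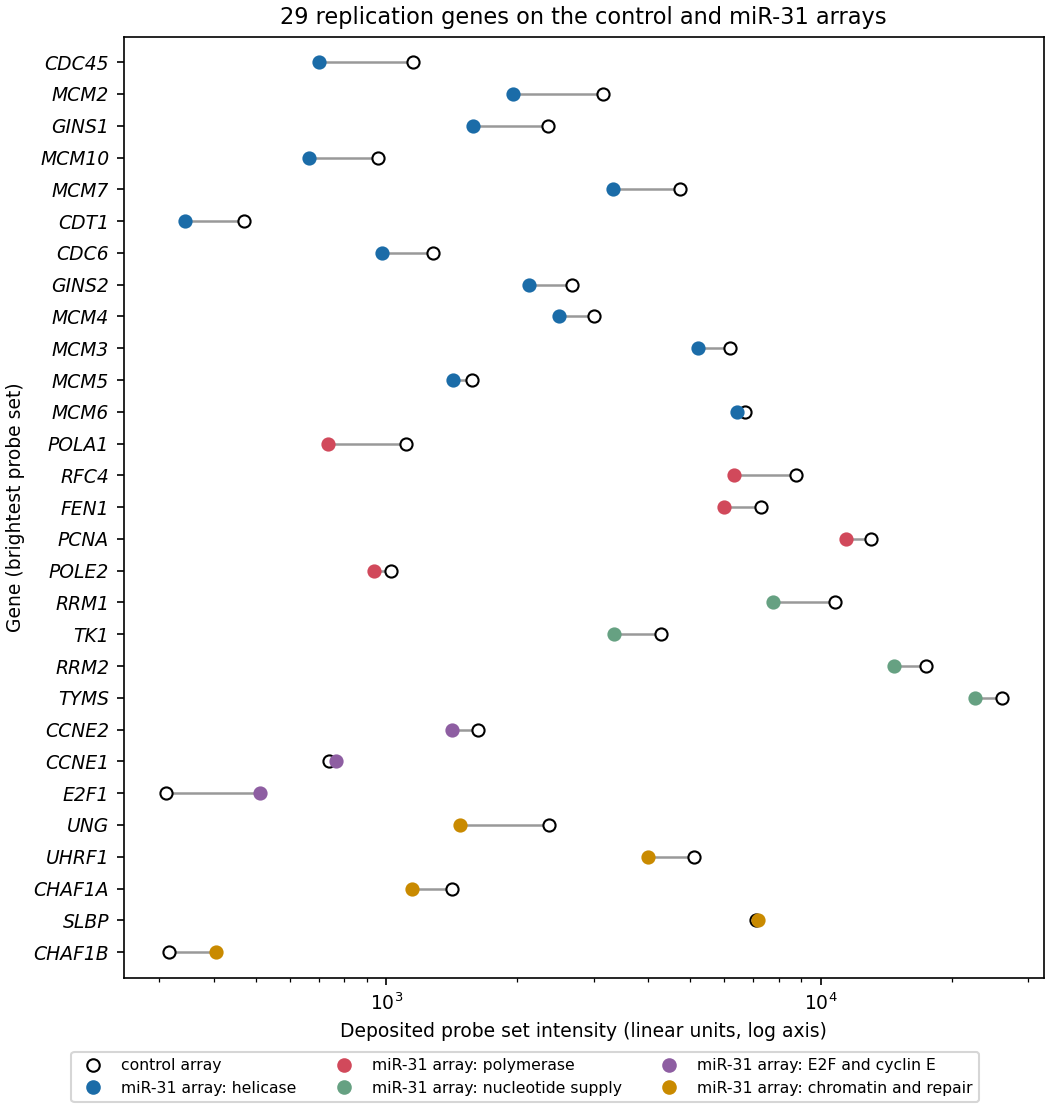
Deposited intensity (linear units on a log axis) of the brightest probe set of each of the 29 genes, with an open circle for the control array and a filled circle, coloured by subgroup, for the miR-31 array. The filled circle lies to the left for 25 genes and to the right for CCNE1, E2F1, SLBP and CHAF1B.

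**Figure D2:**
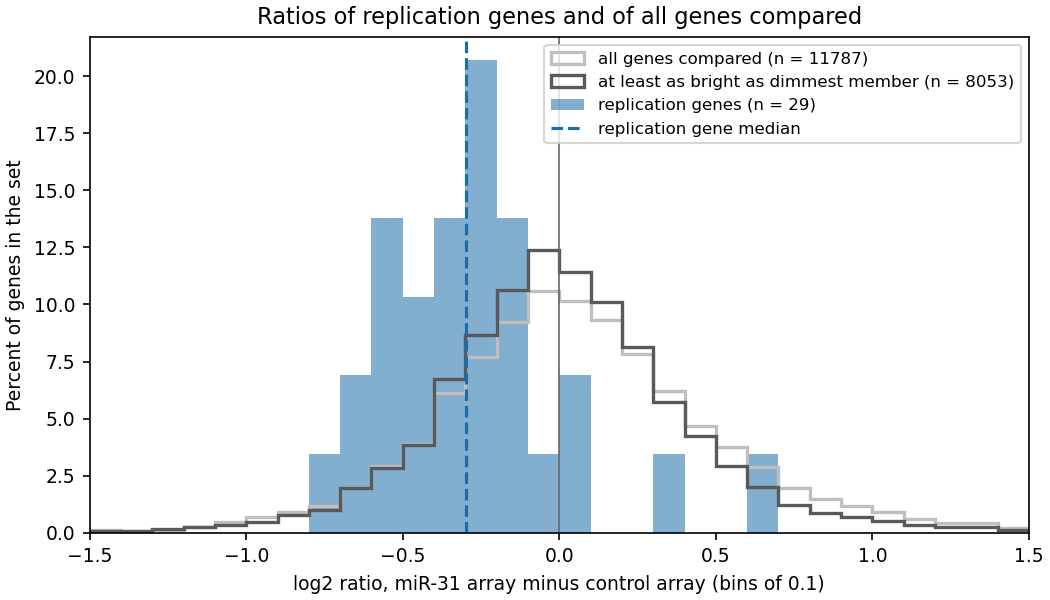
Share of genes (percent) by log2 ratio in bins of 0.1, for the 29 replication genes (filled), all 11787 genes compared (light line) and the 8053 at least as bright as the dimmest of the 29 (dark line). The dashed line marks the replication gene median of -0.30, and genes beyond 1.5 either way are not drawn.

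The helicase genes and those of the factors that load and activate it included the lowest gene of the 29. On their brightest probe sets all 12 genes had a ratio below 0, with a median of -0.41, but MCM5 and MCM6 lay within the gauge and MCM6 was at 0.0050 after quantile normalization. Dimmer probe sets of MCM4, MCM5, MCM6 and GINS2 were above 0. The median was -0.27 without probe sets whose names end in _s_at or _x_at, which may read more than 1 transcript or gene. CDC45, which joins the MCM ring to make the active helicase, read 1152 with the control and 698.4 with miR-31, giving a log2 ratio of -0.71. MCM2, another subunit of the active helicase, had 3155 and 1955 (-0.69). GINS1, a subunit of the GINS complex that binds CDC45 and the ring, had 2354 and 1586 (-0.57). Each of these 3 genes has 1 probe set, so no other reading of it was at hand.

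MCM10, which helps the loaded helicase to start and holds polymerase alpha at the fork, was lower on all 3 of its probe sets. Its brightest read 956.5 with the control and 663.1 with miR-31 (-0.52), and the others had -0.56 and -1.16. The last, with 943.2 and 413.2, was the only 1 of the 50 probe sets of the 29 genes above the level filter that was at least 2-fold lower. The loading factors were also lower on every probe set. CDC6, an ATPase that brings the ring to the origin complex, had 1278 and 976.9 (-0.38, and -0.47 on its other probe set). CDT1, its partner in loading, had 470.3 and 344.1 (-0.43, and -0.46 on its other probe set).

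The subunits of the ring itself, which work in equal numbers, had different ratios on their brightest probe sets. The 6 genes MCM2 to MCM7 ran from -0.69 to -0.06, with a median of -0.26. MCM7 read 4731 with the control and 3324 with miR-31 (-0.51, and -0.32 on its other probe set). MCM4 had 3005 and 2499 (-0.26) and MCM3 had 6179 and 5207 (-0.25). MCM5 had 1574 and 1426 (-0.14), with 0.11 on a dimmer probe set, and MCM6 had 6686 and 6418 (-0.06). MCM2 and MCM7 had the lowest readings on their brightest probe sets, while MCM5 and MCM6 were within the gauge of probe set noise. Whether the 6 subunits differ from each other was not tested, as each ratio carries the gauge of 0.22. A dim probe set of MCM6, with 52.7 and 112.5, had a ratio of 0.90. MCM4 had 3 probe sets between -0.29 and -0.22 and a dimmer one at 0.16.

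GINS2, which belongs to the same complex as GINS1, read 2674 with the control and 2125 with miR-31 (-0.33). Its direction rests on that probe set: the 2 dimmer ones had 0.01 and 0.65, the latter from 59.0 and 101.9, and their mean with the brightest was 0.11.

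**Figure D3:**
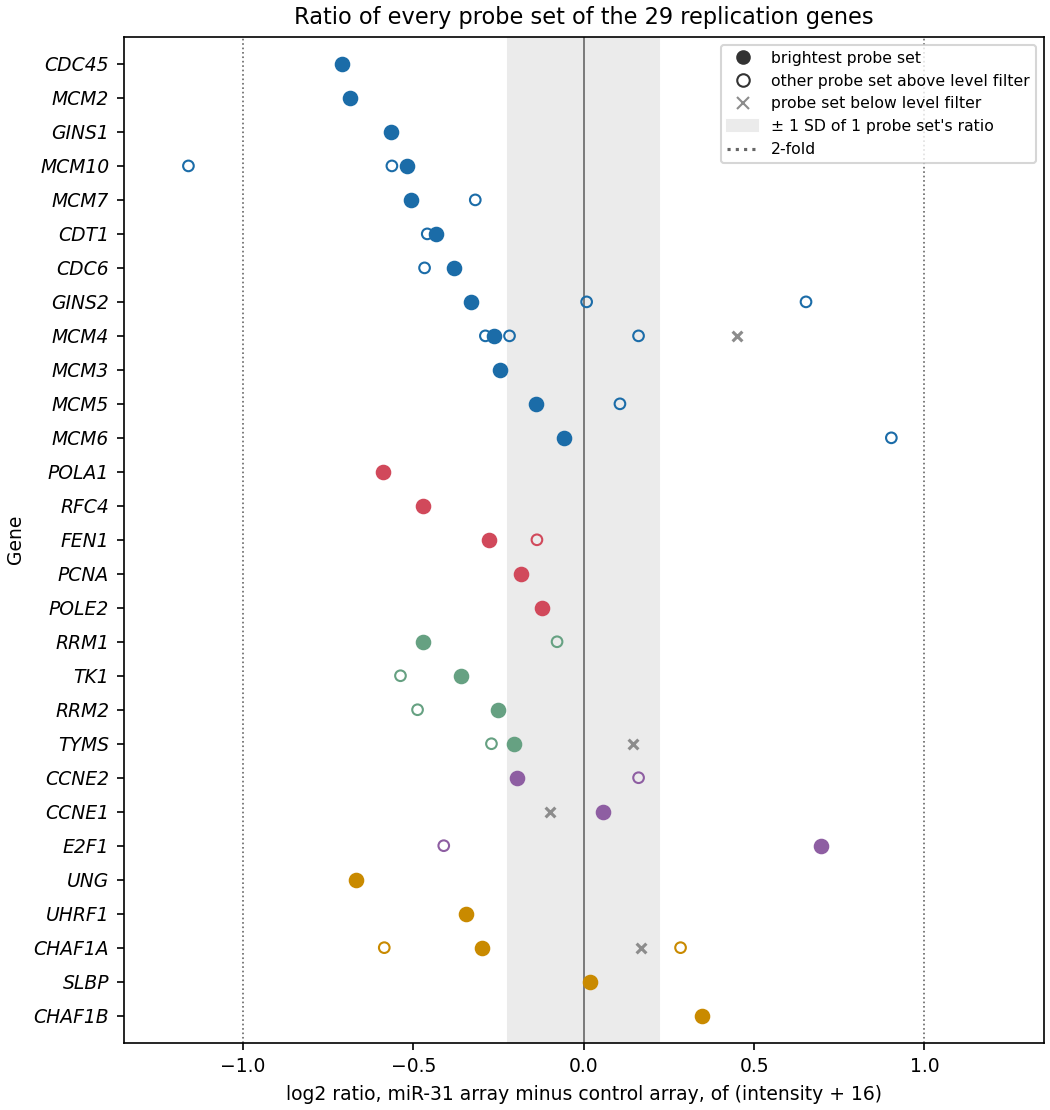
Log2 ratio (miR-31 array minus control array) of every probe set of the 29 genes, with filled circles for the brightest probe set, open circles for others above the level filter and crosses for those below it; the grey band is 1 SD of a probe set's ratio (0.22) and dotted lines mark 2-fold. The band comes from probe sets at least as bright as the dimmest of the 29 and is too narrow for dimmer ones. Without that limit on brightness the SD was 0.33. Of the 50 probe sets above the filter, 39 lie below 0, and E2F1 and CHAF1A are among 7 genes with probe sets on both sides. The share below 0 was not counted over the probe sets of all genes.

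Among genes of the polymerases and of the clamp, 3 of 5 were below 0 by more than the gauge. All 5 were below 0, with a median of -0.28. POLA1, the catalytic subunit of the polymerase that makes the first stretch of each new strand, read 1112 with the control and 734.3 with miR-31 (-0.59). RFC4, a subunit of the loader that opens the clamp, had 8781 and 6321 (-0.47). FEN1, the nuclease that trims Okazaki fragments, had 7272 and 5995 (-0.28, and -0.14 on its other probe set). The clamp gene PCNA had 13018 and 11448 (-0.19), and POLE2, an accessory subunit of the leading-strand polymerase, had 1024 and 938.7 (-0.12). The last 2 lay within the gauge, and POLA1 and RFC4 carried most of the difference in this subgroup.

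The nucleotide supply genes were below 0 on every probe set above the level filter. The median of the 4 genes was -0.31, and TYMS lay within the gauge on its brightest probe set. RRM1, the large subunit of ribonucleotide reductase, read 10766 with the control and 7751 with miR-31 (-0.47), but -0.08 on its other probe set. RRM2, the small subunit, made in S phase, had 17495 and 14705 (-0.25, and -0.49 on its other probe set). For this enzyme the probe sets therefore did not settle which subunit differed more. TK1, the thymidine kinase of dividing cells, had 4297 and 3345 (-0.36, and -0.54 on its other probe set). TYMS, thymidylate synthase, had 26123 and 22655 (-0.21, and -0.27 on its other probe set above the filter).

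The 3 E2F and cyclin E genes lay on both sides of 0. E2F1, an activator of the replication genes, read 310.3 with the control and 512.3 with miR-31 on its brightest probe set, which gave 0.70, the highest of the 29. On its other probe set it had 294.2 and 217.3 (-0.41), so the direction of E2F1 depends on the probe set. CCNE1, cyclin E1, had 736.1 and 766.8 (0.06), and CCNE2, cyclin E2, had 1626 and 1418 (-0.20), with 0.16 on a dimmer probe set. Both cyclin E genes lay within the gauge. The median of these 3 genes was 0.06, but it was -0.00 after quantile normalization and below 0 when ratios were centred on either class of spike-in controls.

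The genes that package or guard the copied DNA were mixed. Of the 5, 3 were below 0 and 2 above, with a median of -0.30. UNG, which removes uracil from DNA, read 2364 with the control and 1481 with miR-31 (-0.67). UHRF1, which passes DNA methylation on to the new strand, had 5098 and 4007 (-0.35). The subunits of chromatin assembly factor 1, which places histones behind the fork, were on opposite sides of 0: CHAF1A had 1413 and 1147 (-0.30) and CHAF1B had 315.4 and 405.6 (0.35). CHAF1A itself had -0.59 on its next probe set and 0.28 on a dimmer one, and CHAF1B has -0.16 after centring on the poly-A controls. SLBP, which binds histone messages, had 7099 and 7186 (0.02).

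Several probe sets per gene gave more than 1 reading for some of the 29. Of the 16 genes with more than 1 probe set above the level filter, 9 were below 0 on all of them: MCM7, MCM10, CDC6, CDT1, FEN1, RRM1, RRM2, TYMS and TK1. For TYMS, FEN1 and RRM1 some of these readings lay within the gauge. The other 7, MCM4, MCM5, MCM6, GINS2, CCNE2, E2F1 and CHAF1A, had probe sets on both sides of 0. The remaining 13 genes had 1 such probe set. How often the probe sets of a gene lie on the same side was not counted over all genes. Over the 16 genes with more than 1, the second brightest probe set had a median of -0.30 and was below 0 in 12. Over all 5918 genes with a second probe set, 44.4% were below 0 on it, with a median of 0.05. Without probe sets whose names end in _s_at or _x_at 20 genes were left, 15 of them below 0, with a median of -0.23. Of all 9154 genes left in that setting, 46.0% were below 0, with a median of 0.04.

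Other genes of replication were mostly below 0 as well. Over 7 lists, 125 genes outside the 29 were compared. Of these, 95 were below 0, where 46.8% of all genes and 50.6% of the equally bright ones were. The same shares apply to the counts of each list below. The median of the 125 genes was -0.26. Past 2-fold were 3 genes downward and none upward, where 1.58% and 3.74% of all genes were. The lists were written with earlier results of these data known. Genes below the level filter were not compared.

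In the list of origin recognition and licensing 8 of 11 genes were below 0, with a median of -0.20. That median depended on the probe set: it was -0.05 over 7 genes without _s_at and _x_at probe sets and 0.11 over the 5 genes with a second probe set, read on that one. GMNN, geminin, which blocks CDT1 after licensing, read 10401 with the control and 6907 with miR-31 (-0.59). ORC6 had -0.56 and ORC1 -0.50, while ORC4 had 0.18 and ORC3 0.26, so subunits of the origin complex lay on both sides of 0. Among 17 genes of helicase activation and the fork 15 were below 0, with a median of -0.30. GINS4 had 1000.0 and 571.4 (-0.79), with 3 probe sets between -0.83 and -0.35, and the fork protection gene TIPIN had -0.55. RPA2, a subunit of the single-strand binding protein RPA, had -0.54, against 0.10 for the subunit RPA3, and GINS3 had 0.02. Within the GINS complex, GINS1 and GINS4 were lower, and GINS3 was near 0, with 0.15 on its other probe set. The direction of GINS2 depended on the probe set.

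Polymerase genes beyond the 29 lay on both sides of 0. Of 22 in the list of polymerases, clamp loading and Okazaki fragments, 12 were below 0 (54.5%) and 10 above. Over all genes 46.8% were below 0. The median of the list was -0.05, against -0.25 on the second brightest probe set of 9 genes. RNASEH2A and RFC2 each had -0.50 and POLE, the leading-strand polymerase, had -0.46. At the other end RNASEH2C had 0.40, with -0.45 on its other probe set, and ATAD5, which unloads the clamp, had 0.50.

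Nucleotide supply genes beyond the 29 held values far from 0 on both sides. Of 19 genes compared outside the 29, 14 were below 0, with a median of -0.17. CTPS1, which makes CTP, read 3258 with the control and 1546 with miR-31 (-1.07). DTYMK, the next kinase after TK1 and TYMS on the way to TTP, had -0.56, with 3 probe sets between -0.56 and -0.05, and MTHFD2, a mitochondrial folate enzyme, had -0.50. In the opposite direction TK2, the mitochondrial thymidine kinase, had 620.8 and 1230 (0.97), with 3 probe sets between 0.49 and 1.22. SAMHD1, which breaks down deoxynucleotides and is known as interferon-inducible, had 1750 and 3342 (0.93), with 6 probe sets between 0.91 and 1.65. RRM2B, the reductase subunit of non-dividing and p53-activated cells, was looked up after its value was seen and had 0.46, against -0.25 for RRM2.

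The list of G1 to S control held the lowest ratio of the 7 lists, that of CCND1. Of 26 genes compared 20 were below 0, with a median of -0.32, against -0.15 on the second brightest probe set of 16 genes. At least 2-fold lower were 2, where 1.58% of all genes were. CCND1, the cyclin D1 that starts RB inactivation, read 9089 with the control and 2352 with miR-31 (-1.94, and -2.07 on its other probe set). MYBL2, a transcription factor made at the start of S phase, had 1264 and 620.4 (-1.01), and CDKN2D, an inhibitor of CDK4 and CDK6, had -0.73. CDKN1A, the inhibitor p21, had 765.3 and 1292 (0.74), and CDKN1C had 0.63, with 4 probe sets between 0.41 and 0.63. CDKN1B, the inhibitor p27, had 0.22, CDK2 had -0.43, and RB1 had -0.28 where its signal was brightest and 0.41 elsewhere.

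On its brightest probe set every E2F gene but E2F1 was below 0. E2F7 read 2087 with the control and 1307 with miR-31 (-0.67), but 0.12 on another probe set, and E2F8, the second atypical repressor, had 1068 and 718.7 (-0.56). Of the activators, E2F2 had -0.46 and E2F3 -0.11. E2F4, E2F5 and E2F6, which mostly repress, had -0.45, -0.25 and -0.39. None of the E2F genes reached 2-fold. E2F1, E2F2, EXO1, FOXM1 and MCM2 have been reported as targets of miR-31 in prostate cancer cells. The nuclease gene EXO1 and the mitotic activator FOXM1, added here after their values were seen, had -0.52 and -0.31.

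Chromatin and repair genes of the fork were mostly below 0. In the chromatin list, which includes CHAF1A, CHAF1B and UHRF1, 14 of 16 were below 0, with a median of -0.27. HELLS, a chromatin remodeller needed for DNA methylation, had -0.70, but 5 probe sets between -0.70 and 0.01. SSRP1, of the histone chaperone FACT, had -0.58, ATAD2 had -0.44 and RBBP4, the third subunit of chromatin assembly factor 1, had 0.21, with 6 probe sets between -0.25 and 0.50. In the list of replication stress and repair 14 of 17 were below 0, with a median of -0.33. It was -0.18 when probe sets of a gene were averaged, -0.15 over 13 genes without _s_at and _x_at probe sets and -0.10 on the second brightest probe set, also of 13 genes. FANCI read 6435 with the control and 3886 with miR-31 (-0.73, with 3 probe sets between -0.73 and -0.29). The checkpoint genes CHEK1 and HUS1 had -0.64 and -0.62, each with a probe set above 0, while BRIP1 had 0.20 and the checkpoint kinase ATR 0.25.

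Mitotic genes act next in the cell cycle. On their brightest probe sets all 32 of a G2 and mitosis list were below 0, with a median of -0.36. For the replication genes it was 25 of 29 and -0.30. Below 0 were 46.8% of all genes compared and 50.6% of the equally bright ones. Dimmer probe sets of CKAP2 (0.26), BUB1 (0.06) and BUB3 (0.01) were above 0. AURKB had -0.84, CENPA -0.79 and PLK1 -0.77 at the low end. CDK1 had -0.14 and HMMR -0.06 at the high end, but the 4 probe sets of CDK1 ran from -0.82 to -0.14. The difference between the 2 lists was not tested. Interferon-stimulated genes lay on the other side on the same arrays. All 9 compared were above 0, with a median of 2.02 (0.89 on the second brightest probe set of 5). They ran from IRF1 (0.75) and IFI16 (0.78) through PML (1.14) and OAS1 (3.87) to MX1 (5.82). MX1 read 19.4 with the control, below the level filter of 62.7, and 1977 with miR-31. It passed the filter on its mean level, and the dim control reading leaves the size of its ratio uncertain. The part of the interferon-stimulated genes in the values of the replication genes was not tested.

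**Figure D4:**
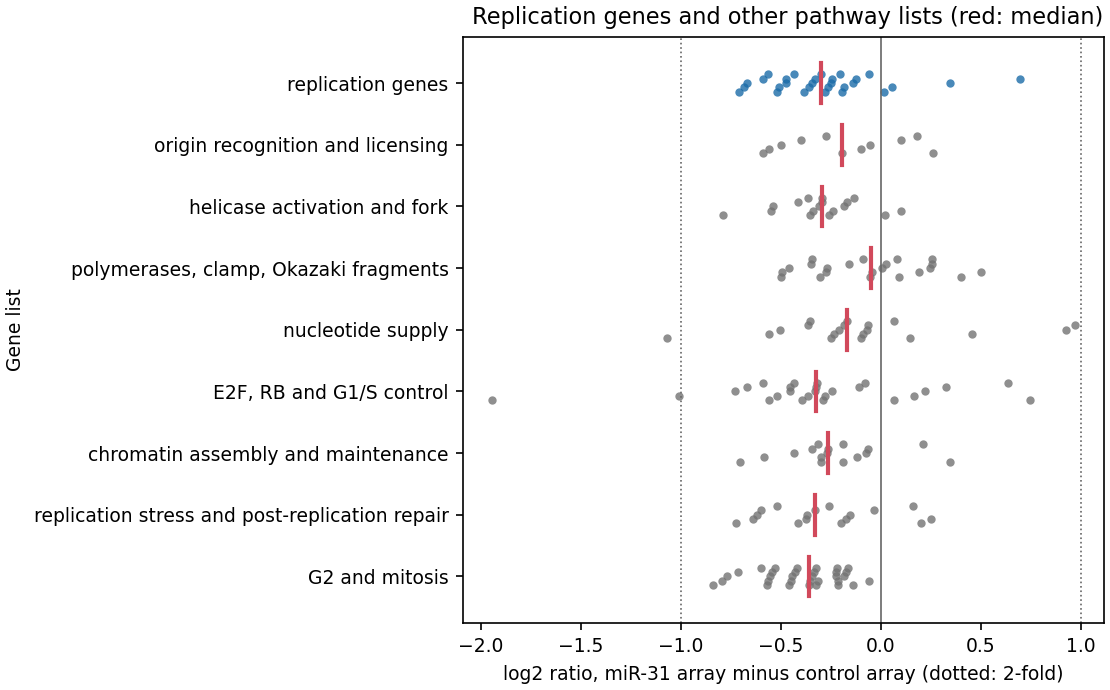
Log2 ratio (miR-31 array minus control array) of each gene above the level filter, by list, with the 29 replication genes in blue, a red bar for each list's median and dotted lines at 2-fold; vertical jitter within a list has no meaning. Medians run from -0.36 (G2 and mitosis) to -0.05 (polymerases, clamp loading and Okazaki fragments), and the point at -1.94 is CCND1.

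Centring shifts the 29 genes and all others alike, so by construction it leaves the distance between their medians as it was. Centring on bacterial hybridisation controls subtracted 0.19 from every ratio and gave medians of -0.49 for the replication genes and -0.16 for all genes. Centring on poly-A spike-in controls subtracted 0.51 and gave -0.80 and -0.47. After quantile normalization the medians were -0.29 and -0.01, and after removal of a level-dependent trend -0.31 and 0.00.

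**Figure D5:**
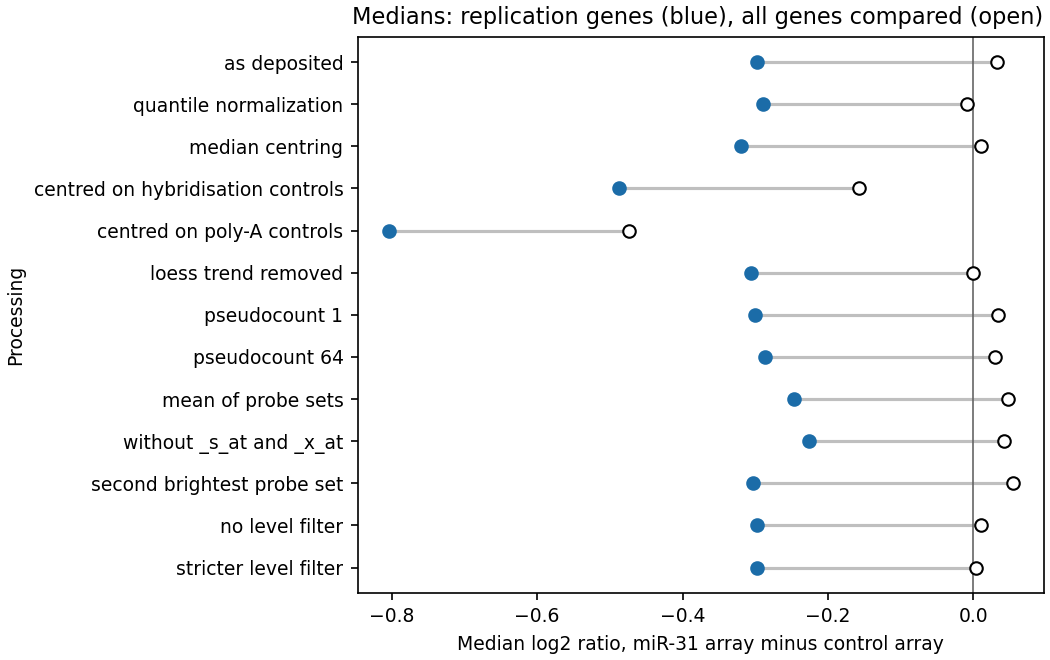
Median log2 ratio of the replication genes (blue) and of all genes compared (open) under each processing; 16 and 20 replication genes enter for the second brightest probe set and for the omission of _s_at and _x_at, and all 29 otherwise. The blue point lies left of the open point in every row, from -0.80 with poly-A centring to -0.23 without _s_at and _x_at probe sets.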

How the data were processed

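The authors deposited 1 table of linear probe set intensity values for 54675 probe sets on 2 arrays; which software made it is not given in the sources used. The equal trimmed means (2% left out at each end) show that both had been brought to 1 level, and no detection calls were used. Of the probe sets, 41091 carried exactly 1 symbol in the supplied platform annotation and were used; the 62 control probe sets were left out. Ratios are differences of log2(intensity + 16), and the mean level is the mean of these log2 values over both arrays. The probe set with the highest mean level represents a gene.

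With 1 array per group no test was possible; a fixed size of 2-fold, or 1.5-fold, took its place, and the number of arrays limits the precision. Members, subgroups, lists and rules were chosen with earlier results of these data known. All 29 genes are named, and from each other list the 3 lowest and 2 highest genes, with CCND1, CDKN1A, CDKN1B, RB1, CDK2 and all E2F genes. The calculation was tested on simulated data. A planned search of protein sequences was not run, and some items of the lists are not reported here. The analysis ran in Python 3.11.15 with pandas 2.3.3, numpy 2.4.6 and statsmodels 0.14.6, and plots were drawn in matplotlib 3.10.9.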

Additional observations from a re-analysis of the deposited data

How the results depend on the processing

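No paired analysis was possible because neither group has more than 1 array, which also means that none could be omitted. The comparison with equally bright genes was added after seeing the data. A move was counted if it exceeded 0.1 for a median, 0.22 for a gene, 10 percentage points for a share or 1.5 times for a count; subgroups left with under 3 genes got no median. The replication gene median stayed below 0 in all settings run, from -0.80 to -0.23. Several settings could not have raised it above 0. Each centring subtracted a constant above 0, and both level filter settings left the median unchanged. The number added to intensities before taking logs cannot change the sign of a gene's ratio.

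Centring on hybridisation controls gave medians of -0.49 for the replication genes, -0.60 for helicase, -0.47 for polymerase, -0.49 for nucleotide supply, -0.13 for E2F and cyclin E, -0.49 for chromatin and repair and -0.16 for all genes, of which 65.4% were then below 0. Centring on poly-A controls gave -0.80, -0.91, -0.78, -0.81, -0.45, -0.80 and -0.47 in the same order, and 85.2%. CHAF1B then had -0.16. At least 2-fold lower were 7 replication genes, and so were 1121 of all 11787 genes compared. By construction a constant is subtracted there.

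Without _s_at and _x_at probe sets 15 of 20 replication genes were below 0, against 46.0% of all 9154 genes left. The helicase median was -0.27. Past 2-fold lower was 1 replication gene, MCM10, and so were 151 of the 9154. With the second brightest probe set 12 of 16 replication genes were below 0, against 44.4% of all 5918 genes with 1. There the helicase median was -0.30, E2F1 had -0.41 and the origin and licensing list, left with 5 genes, had 0.11. GINS2 had 0.0084 in both of these settings and 0.11 as a mean of probe sets. At 1.5-fold 4 replication genes were lower and 1 higher.

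Of all genes, 186 were lower and 441 higher by 2-fold. These counts became 367 and 266 with hybridisation centring, 1121 and 136 with poly-A centring, 122 and 275 with a pseudocount of 64, 104 and 211 of 5918 with second probe sets, 793 and 1376 at 1.5-fold, 1002 and 1184 without a level filter, and 95 and 148 with the stricter filter. By construction, second probe sets and both filter settings change which genes can be counted, and 1.5-fold changes the size counted.

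All 29 genes are above the level filter, but the gauge of 0.22 exceeds the ratio of 8 of them, TYMS included. The gauge leaves out differences between cultures, so with 1 array per group it settles the direction of no gene. Of the others, E2F1, GINS2, CHAF1A and MCM4 had probe sets on both sides of 0, and CHAF1B turned below 0 with poly-A centring.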
